A study of Mus musculus with 4 samples.

Results

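The domains described here were H4K20me1 regions of a mesenchymal cell population that, in a clone derived from it, were met by 2 or more separate regions. Membership needed at least 1 bp shared with each of 2 or more clone regions, on any chromosome other than 11 and 13. Of the 25001 population regions on those chromosomes, 1398 (5.59%) met this rule, out of 28166 population regions in all. The members were chosen by the measured overlap of the 2 lists, so this share is a description and nothing is read from it. These 1398 are called broken domains below, and all of them entered every count, since no filter was applied.

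The cells were mesenchymal stem cells from the bone marrow of C57BL/6 mice. One culture, MSC21, was a mixed population, and the other, 4L.1.4, was a single clone derived from it. Both were grown to confluence, and no treatment or genetic change is named for either. The clone stands for 1 cell lineage. In each culture chromatin was precipitated once with antibody to H4K20me1 and once with serum of a non-immunised rabbit, so there was 1 library per group, and no difference could be set against replicate error. The intervals given are 95% intervals. They treat regions as independent and hold counting error alone; for shares they are exact Clopper-Pearson intervals, and for medians they are taken from the ranked values. The names of the lists give the culture but not the antibody, so that they hold H4K20me1 rather than serum regions is assumed. The sequencing depth is unknown, as the lists hold only chromosome, start and end. Sequence outside the clone regions is called unmarked, meaning that no clone region was called there; a level of the mark below the limit of the calls cannot be told apart from its absence. The identity of the cells was not checked against marker genes, as no expression was measured here.

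H4K20me1, histone H4 carrying a single methyl group on lysine 20, is placed on nucleosomes by the enzyme SETD8, and further methylation of the same lysine by the SUV420H enzymes turns it into the dimethyl and trimethyl forms. It is known as a broad mark that runs along the bodies of transcribed genes rather than as a sharp peak, and it rises as cells pass through G2 and mitosis. Its domains are therefore described by their extent and continuity. Positions are in the mouse build mm9, and the genes under the domains are not named because no annotation of that build was used here.

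Broken domains were wide. Their median width was 14169.5 bp (13386 to 14960 bp, n = 1398), with quartiles of 8119.25 and 23092 bp and a range of 743 to 147981 bp. Population regions met by exactly 1 clone region, of which there were 7001, had a median of 4044 bp (3929 to 4183 bp). All 25001 population regions had a median of 2125 bp. A wide region offers more room for several clone regions, so these widths follow in part from the rule. Although few in number, the broken domains held 24.5 Mb, or 20.4%, of the 120.1 Mb of population regions on these chromosomes. Of the broken domains 445 (31.8%) were at least 20 kb wide, whereas 4.30% of all population regions were, and 142 were under 5 kb.

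Most broken domains were met by few clone regions. In 973 of them (69.6%) there were 2 clone regions, in 269 (19.2%) there were 3, in 94 there were 4 and in 32 there were 5. A further 19 domains had 6, 6 had 7, 3 had 8, 1 had 9 and 1 had 13. In all, 3449 different clone regions touched a broken domain, and 42 of these touched 2 or more of them. The clone regions involved were slightly narrower than others: their median was 3501 bp (3394 to 3614 bp), against 3826 bp (3733 to 3930 bp) for the 7086 clone regions elsewhere. Several had to meet 1 domain, so a narrower width may follow in part from the rule. Those elsewhere include clone regions that met no population region. Seldom did 1 piece hold nearly all of the covered sequence of a domain. The largest piece made up a median of 63.6% (62.3 to 65.0%) of it, and in 134 domains (9.59%) at least 90%. Among the 973 domains with 2 clone regions the larger piece made up a median of 69.2% (68.1 to 70.9%), with an upper quartile of 82.4%.

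Clone regions covered most of a typical broken domain. The median covered share was 81.2% (79.7 to 82.8%), with quartiles of 60.6% and 93.0% and a range of 5.74% to 99.98%. At least 90% was covered in 443 domains (31.7%), less than 50% in 235 (16.8%) and less than 25% in 42. In base pairs, 17.2 Mb of the 24.5 Mb (70.2%) lay under clone regions. The median was lower than in the domains met by 1 clone region, where it was 96.3% (95.8 to 96.7%) and where 59.9% were covered to at least 90%. In base pairs the difference was smaller, as 78.8% of the latter domains lay under clone regions. The 5th percentile had the other order, at 30.6% in broken domains and 24.6% in those met by 1 clone region. The number of clone regions chose both sets, so this comparison has no test. By the rule every broken domain holds an unmarked gap and cannot be covered in full, whereas the upper quartile of the others was 100%. A lower median in broken domains thus follows in part from the rule.

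From 10 kb on, the median covered share was also lower between domains of like width, with the same limit from the rule. From 10 to 20 kb, the median covered share was 77.6% (75.2 to 80.1%) in 490 broken domains and 95.4% (93.9 to 96.4%) in 1002 domains met by 1 clone region. From 20 to 40 kb the medians were 80.4% (78.0 to 83.3%, n = 362) and 98.2% (96.9 to 98.8%, n = 346). From 40 kb on, the broken domains had a median of 59.96% (46.4 to 75.3%, n = 83), and the others had 98.8% with a wide interval of 59.3 to 99.7% (n = 58). These 2 intervals overlapped. Between 5 and 10 kb the medians were closer, at 83.8% (80.7 to 86.5%, n = 321) and 87.4% (85.7 to 89.0%, n = 1567), and their intervals overlapped. Under 5 kb they were 91.8% (89.3 to 93.3%, n = 142) and 98.98% (98.4 to 99.6%, n = 4028). In both of these narrower classes the means had the other order, 78.8% against 76.2% at 5 to 10 kb and 86.7% against 86.0% under 5 kb, and the lower quartile was higher in the broken domains, at 67.3% against 55.9% and 83.1% against 79.2%. From 10 to 20 kb the means were 72.7% and 78.8%, from 20 to 40 kb 72.0% and 79.4%, and from 40 kb on 59.7% and 69.8%. The spread within each class was large, as the plot of covered share by width shows; from 40 kb on the lower quartile was again higher in the broken domains, at 37.3% against 26.4%.

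**Figure D1:**
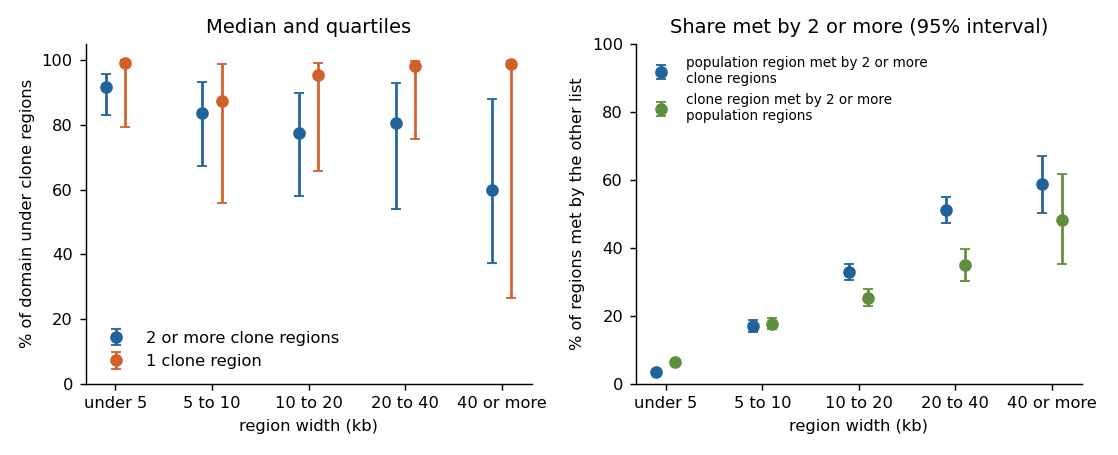
Left: share of a population domain under clone regions (%, median with quartiles as bars) against domain width (kb), for domains met by 2 or more clone regions and by 1. Right: share of regions met by the other list that were met by 2 or more of its regions (%, with exact 95% intervals), for population and for clone regions. In the left panel the medians of the 2 sets are furthest apart from 40 kb on, at 59.96% and 98.8%, though their 95% intervals (not drawn) overlap there. In the right panel the population lies above the clone from 10 kb on, with overlapping intervals at 40 kb or more.

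Most of the gaps that broke these domains were short. There were 2093 inner gaps, meaning stretches between consecutive clone regions within 1 domain, and their median length was 346 bp (318 to 387 bp), with quartiles of 126 and 1305 bp. The shortest was 2 bp and the longest 53214 bp. Of the gaps, 751 (35.9%) were under 200 bp, roughly the repeat length of a nucleosome with its linker, and 424 (20.3%) were under 100 bp. Gaps under 1000 bp numbered 1480 (70.7%). In 906 domains (64.8%) no gap reached 1000 bp, and in 430 (30.8%) the longest gap was under 200 bp. In these 906 domains the clone regions were separated by short interruptions only.

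Long gaps were few but held most of the unmarked sequence inside the domains. The 613 gaps of 1000 bp or more made up 84.5% of all gap base pairs, and the 104 gaps of 5000 bp or more made up 40.4%. The gaps under 200 bp made up 2.64%. A single gap of 1000 bp or more was found in 399 domains, 2 such gaps in 72 and 3 or more in 21. On a logarithmic scale the gap lengths peaked between 178 and 316 bp, with 303 gaps. There were 190 gaps between 562 and 1000 bp and 233 between 1000 and 1778 bp. Whether this dip exceeds counting error was not tested. The unmarked edges, from a domain's end to its outermost clone region, showed the dip less clearly, with 220, 199 and 260 edges in the same 3 classes. Gaps in clone regions met by 2 or more population regions showed no dip, with 223, 183 and 164 gaps in these classes.

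**Figure D2:**
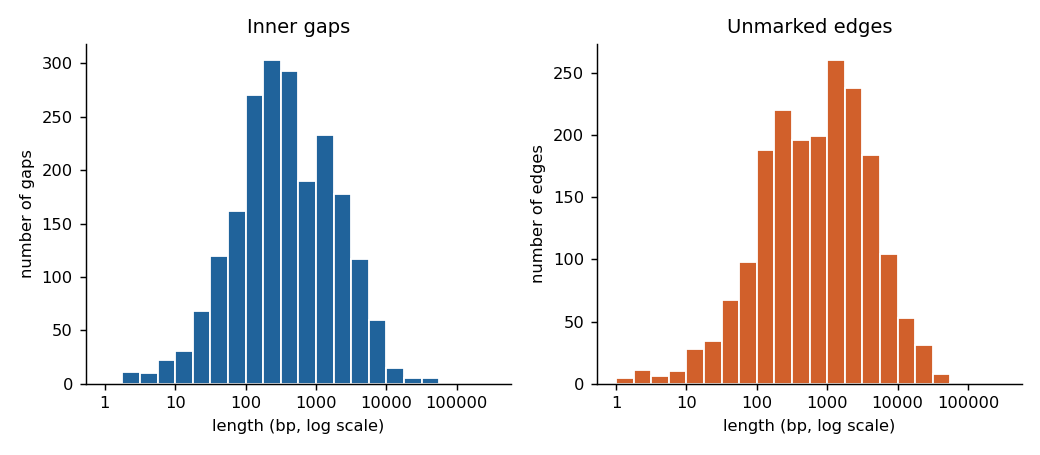
Number of inner gaps (left, 2093 gaps) and of unmarked edges (right, 1942 edges) by length (bp, log scale) in the 1398 broken domains; ends reached by a clone region are not drawn. The gaps peak between 178 and 316 bp, the edges between 1000 and 1778 bp.

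More of the unmarked sequence lay at the edges than inside. Edges held 4.73 Mb and inner gaps 2.58 Mb, so that 64.8% of the 7.31 Mb of unmarked sequence was at the edges. Domain by domain the division was more even: the inside share had a median of 42.6% (38.8 to 46.0%), and in 627 domains (44.8%, 42.2 to 47.5%) more was unmarked inside than at the edges. Domains with a longer gap were divided otherwise. When clone regions within 1000 bp of each other were joined first, 492 broken domains were left, all among the 1398. In 58.3% of them (53.8 to 62.7%) more was unmarked inside. Joining keeps only domains with a gap above 1000 bp, so a larger inside share follows in part from the choice of domains. In base pairs the edges of those 492 still held slightly more, at 2.31 Mb against 2.18 Mb. With joining within 3000 bp 187 domains were left, and the inside held more in base pairs as well, 1.48 Mb against 1.07 Mb.

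At the ends of the domains, a clone region reached or passed 854 of the 2796 domain ends (30.5%). Both ends were reached in 210 domains (15.0%), exactly 1 in 434 (31.0%) and neither in 754 (53.9%). The 1942 ends not reached had a median unmarked edge of 779 bp (698 to 866 bp), and 1062 of them (54.7%) were under 1000 bp. Edges of 5000 bp or more numbered 221 and held 59.9% of all edge sequence. In the 754 domains with an unmarked edge on both sides, the longer edge held a median of 85.6% (84.0 to 87.2%) of the edge sequence, and at least 90% in 294 (39.0%). The longer of the edges holds at least 50% by definition. Neither direction along the chromosome was favoured in amount, with 2.40 Mb at lower-coordinate and 2.33 Mb at higher-coordinate edges. In 663 domains (47.4%) a single edge held over 50% of the unmarked sequence, in 533 (38.1%) a single inner gap did, and in 202 (14.4%) no single stretch did.

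Beyond the long edges the next population region was mostly near and the next clone region mostly far. Outward from the 221 edges of 5000 bp or more, the next population region was a median of 1.36 kb away (0.82 to 2.39 kb) and the next clone region 140.9 kb away (96.8 to 188.9 kb). A population region lay within 10 kb outward of 159 of these edges (71.9%), and a clone region within 10 kb of 36 (16.3%). Outward from the 1062 edges under 1000 bp the next population region was a median of 8.65 kb away (6.20 to 13.5 kb) and the next clone region 63.1 kb (52.4 to 78.8 kb). Population regions were thus closer, and clone regions further away, outside long edges than outside short ones. Over the whole lists population regions also lay closer together, with a median spacing of 2990 bp against 8309 bp in the clone. Long edges are by definition stretches without clone regions, so a distant next clone region may follow in part from their choice.

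Clone regions also ran past the ends of broken domains. This was the case at 850 of the 2796 ends (30.4%) and at 1 or both ends of 644 domains (46.1%). The overhang had a median of 821 bp (654 to 1031 bp) and reached 58926 bp. In 316 broken domains (22.6%) at least 1 of the clone regions also met a further population region, so that the lists interrupted each other there. The other 1082 domains were simple breaks, with 1 population region over 2 or more clone regions and no further partner.

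Along the length of a domain, marking by the clone was lowest at the ends and fairly level in between. In the 490 broken domains of 10 to 20 kb, a mean of 43.3% of the outermost 5% of the length on the lower-coordinate side, and 44.8% on the other side, lay under clone regions. Next to the middle the means were 77.8% and 79.6%. At this width the dip at the ends was not special to broken domains: those met by 1 clone region went from 56.4% and 56.1% at the ends to 85.0% and 84.8% in the middle. In the 83 broken domains of 40 kb or more the means were 48.3% and 44.5% at the ends and 58.7% and 56.0% next to the middle, with a high of 70.5% between 20% and 25% of the length. The 58 domains of that width met by 1 clone region had 63.6% and 71.2% at the ends. Next to the middle they had 66.9% and 66.2%, so their higher-coordinate end showed no dip. The longest gap of a domain had its midpoint at a median of 51.4% of the length (49.9 to 53.2%). Between the first and the last clone region is the only place where an inner gap can lie, so a position near the middle follows in part from the definition.

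**Figure D3:**
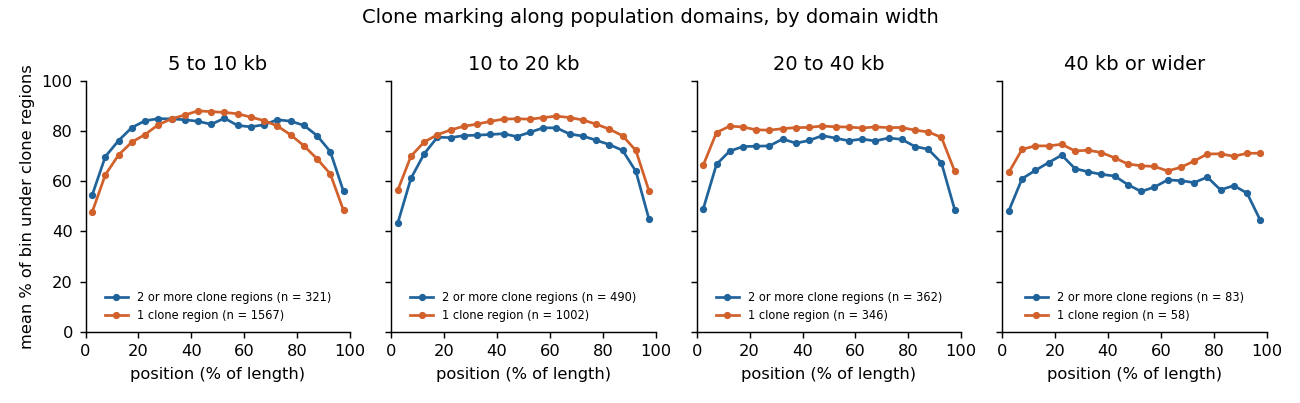
Mean share of each 5% bin of a domain's length that lay under clone regions (%), against position from the lower-coordinate end (% of length), in 4 width classes, for domains met by 2 or more clone regions and by 1. At 10 to 20 kb the broken domains rise from 43.3% at the end to 77.8% next to the middle; from 10 kb on the broken domains lie below the others in every bin.

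Domains broken into more pieces were wider and had longer gaps. The median width was 11083 bp (10486 to 11888 bp) with 2 clone regions, 18634 bp (17220 to 20456 bp) with 3, 27047.5 bp (24450 to 29917 bp) with 4 and 35062.5 bp (28323 to 43931 bp) with 5 or more. The median gap was 288 bp (263 to 325 bp) with 2, 376.5 bp (304 to 463 bp) with 3, 436 bp (343 to 548 bp) with 4 and 457 bp (387 to 529 bp) with 5 or more. Only the first of these intervals stood apart from those with 4 and with 5 or more, and neighbours in this order overlapped. The covered share differed little, from 83.3% (81.2 to 84.9%) with 2 to 75.4% (64.8 to 83.9%) with 5 or more. The unmarked sequence moved inward: 26.5% of it was inside in domains with 2 clone regions, 36.6% with 3, 47.1% with 4 and 58.2% with 5 or more. A domain with more clone regions has more gaps by construction. The median gap also rose with domain width, from 146 bp under 5 kb to 514.5 bp from 40 kb on. Domains with different numbers of clone regions were not compared at like width.

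The 10 widest broken domains differed in where the clone mark was missing, as the map of these domains shows. The widest, 147.98 kb on chromosome 1 (91353782 to 91501762), was met by 5 small clone regions with 0.496 to 3.58 kb inside the domain, separated by gaps of 32.2, 32.9, 53.2 and 15.6 kb. Its covered share was 8.09%, and 98.5% of the unmarked sequence was inside. The next, 120.6 kb on chromosome 4 (130219664 to 130340260), showed the opposite arrangement: its 3 clone regions sat close together, with gaps of at most 1276 bp, behind an unmarked edge of 102.5 kb. A domain of 74.5 kb on chromosome 15 (8319397 to 8393888) was broken by a gap of 145 bp alone, while 55.3 kb at its higher-coordinate edge was unmarked. A domain of 70.9 kb on chromosome 1 (71628997 to 71699869) was alike, with gaps of 391 and 136 bp and an unmarked edge of 45.8 kb. On chromosome 16 (38097384 to 38189672) 51.9 kb at the lower-coordinate edge was unmarked, ahead of 6 clone regions with gaps of 54 to 1516 bp. On chromosome 4 (8618996 to 8713165) 5 clone regions lay in the first part of 94.2 kb, followed by an unmarked edge of 56.5 kb.

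**Figure D4:**
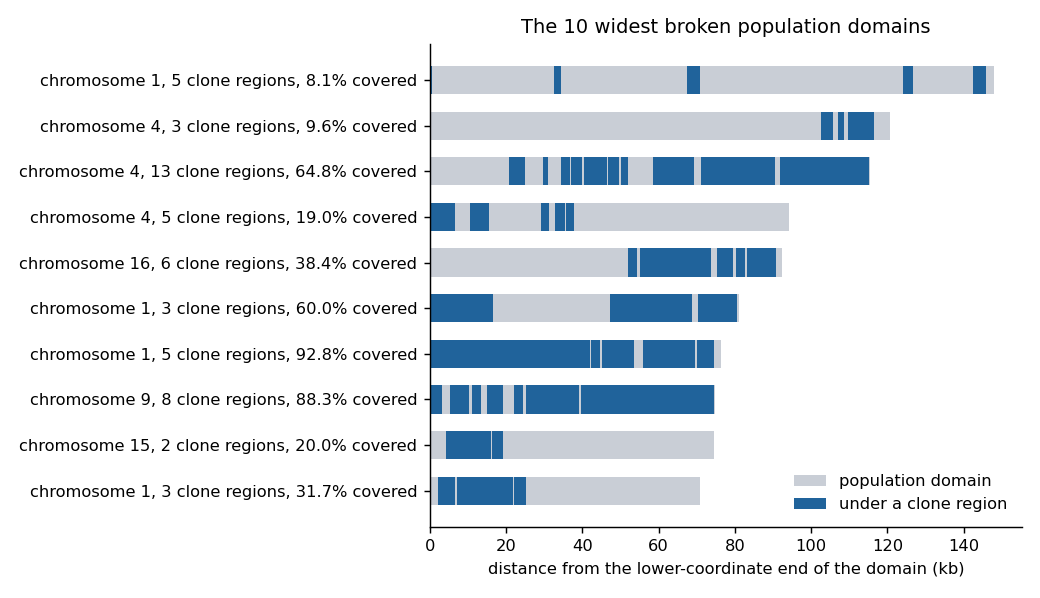
The 10 widest broken domains drawn to scale as grey bars from their lower-coordinate end (distance in kb), with the stretches under clone regions in blue. The domain at the top, 147.98 kb wide, has 5 small clone regions spread along it; the next one has 3 clone regions near its end after 102.5 kb without any.

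The other 3 of these had little unmarked edge, and 1 of the 10 held the most pieces of all. A domain of 81.1 kb on chromosome 1 (171959032 to 172040110) was marked up to 84 and 427 bp from its ends, with clone regions of 16.6, 21.6 and 10.4 kb and a central gap of 30.5 kb (171975678 to 172006163). Domains of 76.4 kb on chromosome 1 (136457894 to 136534284) and 74.7 kb on chromosome 9 (59259247 to 59333969) were covered to 92.8% and 88.3% by 5 and 8 clone regions, with no gap above 2308 and 2854 bp. The domain of 115.4 kb on chromosome 4 (148357278 to 148472707) was met by 13 clone regions of 1.27 to 18.4 kb. It was unmarked over the first 20.8 kb, then carried 7 small clone regions, then a gap of 6409 bp, and then 6 clone regions that included those of 9.36, 13.7 and 18.4 kb. Its last clone region ended 216 bp before the domain did, and 64.8% was covered.

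Among the 10 domains with most clone regions, the covered share ran from 24.4% to 94.0%, and the domain with 13 is described above. On chromosome 4 (141049142 to 141093998) 9 clone regions covered 85.0% of 44.9 kb, with gaps from 24 to 3046 bp. On chromosome 1, 8 clone regions covered 94.0% of a domain of 46.6 kb (59821086 to 59867715) and 84.9% of 1 of 59.3 kb (36936829 to 36996105). Of the 6 domains with 7 clone regions the narrowest was not listed, and the covered share of the others differed widely. On chromosome 3 (105554578 to 105604057) and chromosome 7 (127821412 to 127856500) 86.5% and 83.4% was covered. A domain on chromosome 3 (103718950 to 103766701) was covered to 37.3%, with a longest gap of 10.4 kb. For chromosome 12 (86337717 to 86383687) these values were 47.5% and 10.7 kb, and for a domain of chromosome 1 (34068453 to 34135393) they were 24.4% and 32.3 kb. The last of these had 3 clone regions before its long gap and 4 after it, each between 1.82 and 3.76 kb wide.

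Ranked by the longest gap of each domain, the domains that followed the widest one had gaps of 45.2 kb on chromosome 16 (94837183 to 94882361), 32.3 kb on chromosome 1 (34084591 to 34116921), 30.5 kb on chromosome 1 and 27.95 kb on chromosome 6 (28444493 to 28472443). The chromosome 16 domain (94836980 to 94887086) was the least covered of all, at 5.74%. It was met at its lower-coordinate end by a clone region of 44.6 kb (94792576 to 94837182), of which 203 bp lay within it. The chromosome 6 domain (28430314 to 28476070) was marked at both ends, over 14.1 and 3.63 kb. On the X chromosome a domain of 47.9 kb (93298300 to 93346180) was covered to 6.63% by a pair of clone regions 225 bp apart, with unmarked edges of 15.7 and 28.8 kb. A domain of 46.8 kb on chromosome 19 (7193363 to 7240151) was covered to 9.68%, with a gap of 20.3 kb and edges of 5785 and 16199 bp.

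At the other extreme, wide domains were broken by a few base pairs. Among domains of at least 20 kb the most covered was on chromosome 7 (16584337 to 16632016), where a gap of 13 bp separated clone regions that covered 99.97% of 47.7 kb. On chromosome 2 (93957379 to 93984004) the gap was 11 bp, on chromosome 5 (115461630 to 115532107, 70.5 kb) 103 bp, and on chromosome 17 (3338063 to 3360963 and 26021709 to 26056529) 44 and 108 bp. The domains nearest the median width also had short gaps but differed in their unmarked edges. On chromosome 8 (75820619 to 75834795) a gap of 346 bp divided 97.4% coverage. On chromosome 18 (3387733 to 3401894) the gap was 110 bp and an edge of 3008 bp was unmarked, and on chromosome 17 (28721253 to 28735363) the gap was 88 bp and the edge 5130 bp.

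Near the limit of membership the overlaps were slight. The smallest second overlap that made a member was 3 bp, on chromosome 12 (112783901 to 112786388) and on chromosome 18 (57526049 to 57533819). The second largest overlap was under 100 bp in 57 members (4.08%) and had a median of 2430.5 bp over all of them. Just outside, a region on chromosome 5 (114323350 to 114326555) and 1 on chromosome 6 (83899256 to 83903890) met 1 clone region and ended where another began, with 0 bp between. Of the 7001 regions met by 1 clone region, 139 had a second clone region less than 100 bp away and 1281 less than 1000 bp away.

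The share of broken domains varied from chromosome to chromosome. As the rule used this quantity, the values are a description, and the extremes are picked from 18 chromosomes. The share is given here among the population regions met by the clone, 8399 of 25001 (33.6%), of which 16.6% (15.9 to 17.5%) were broken. Chromosome 17 had the lowest share, 34 of 513 (6.63%, 4.63 to 9.14%). The highest were on chromosome 15 (29.5%, 24.3 to 35.2%), chromosome 16 (28.2%, 22.3 to 34.7%), chromosome 4 (26.7%, 23.2 to 30.4%) and chromosome 3 (24.5%, 19.8 to 29.8%), whose intervals overlap one another. Among met regions of at least 10 kb, 19 of 133 were broken on chromosome 17 (14.3%, 8.83 to 21.4%), while 118 of 213 were on chromosome 4 (55.4%, 48.5 to 62.2%). Chromosomes 15, 16 and 3 were also among those with the fewest regions met by the clone at all, 23.8%, 21.3% and 23.6%, whereas on chromosome 4 32.9% were met and on chromosome 17 38.1%. The X chromosome had 38 broken domains among 164 met (23.2%, 17.0 to 30.4%), with 17.3% of their unmarked sequence inside.

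**Figure D5:**
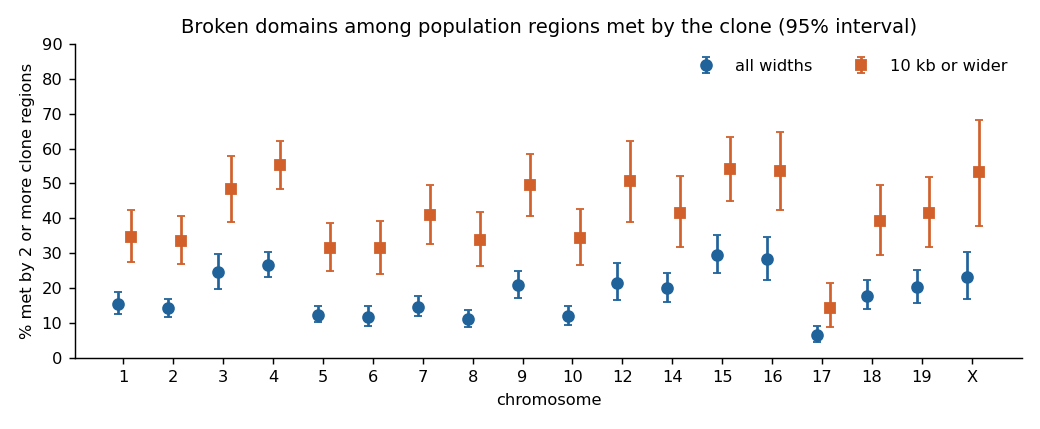
Share of population regions met by the clone that were met by 2 or more clone regions (%, with exact 95% intervals), by chromosome, for all widths and for regions of at least 10 kb. Chromosome 17 is lowest in both, at 6.63% and 14.3%; chromosome 4 reaches 55.4% among the wide regions.

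The median gap of a chromosome ran from 232 bp on chromosome 18 (165 to 326 bp, 87 gaps) to 557 bp on chromosome 15 (420 to 958 bp, 144 gaps), and on chromosome 17 it was 292 bp (115 to 630 bp, 41 gaps). The median covered share was lowest on chromosome 15, at 69.3%, and highest on chromosome 18, at 92.9%. Broken domains lay within 1000 bp of another population region in 869 of 1398 cases (62.2%, 59.6 to 64.7%), against 55.7% (54.5 to 56.8%) of those met by 1 clone region.

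Breaks were found in the opposite direction too. Of 10535 clone regions on these chromosomes, 8928 (84.7%) met a population region and 1171 (11.1%) met 2 or more. Their 1564 inner gaps, here stretches of a clone region between population regions, had a median of 284.5 bp (258 to 312 bp). Over all widths this was somewhat shorter than the 346 bp in the broken population domains, and 78.0% (75.9 to 80.0%) were under 1000 bp against 70.7% (68.7 to 72.7%). These clone regions were narrower, however, with a median width of 8330 bp. At like width the order was the other way under 10 kb and the same from 20 kb on. Under 5 kb the median gap was 174 bp in clone regions and 146 bp in population domains, and at 5 to 10 kb 283.5 and 237.5 bp. At 10 to 20 kb the medians were 385.5 and 387 bp, at 20 to 40 kb 361 and 442 bp, and from 40 kb on 355 and 514.5 bp. No intervals were taken for these medians by width, and their differences were not tested. Among regions of 20 to 40 kb met by the other list, 51.1% (47.4 to 54.9%) of population regions and 35.0% (30.3 to 39.8%) of clone regions were met by 2 or more. At 10 to 20 kb the shares were 32.8% (30.5 to 35.3%) and 25.3% (22.9 to 27.8%), and at 5 to 10 kb they overlapped, at 17.0% and 17.7%. Under 5 kb the order was the other way, at 3.41% (2.88 to 4.00%) and 6.42% (5.77 to 7.12%). On chromosome 17, 69 of 458 clone regions (15.1%, 11.9 to 18.7%) were met by 2 or more population regions, against 13.1% over all chromosomes used. In each list neighbouring regions often lay close together, less than 200 bp apart in 14.6% of cases in the population and 11.5% in the clone. How the calls were made is not given in the sources used here, and the part of the calling in these short gaps was not tested.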

How the data were processed

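Per the submitters' processing notes, CASAVA 1.8.1, Bowtie and the build mm9 were used; no source used here says which program called the regions. The names of the lists carry the tag FDR5, which may stand for a false discovery rate limit and is not explained; they name the culture and not the antibody. Per the labels, libraries were amplified for 12 cycles and read from a single end over 50 cycles, with 1 lane each. The authors deposited 2 lists of regions, whose values are other than a signal: chromosome, start and end in base pairs, with no score or read number. Depth, and hence the precision of a region's ends, is unknown. Serum libraries were not analysed here.

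Starts were read as counted from 0 and are printed from 1. For each domain the clone regions sharing at least 1 bp, the covered base pairs, inner gaps and edges were taken with Python 3.11.15, numpy 2.4.6 and scipy 1.17.1, and plotted with matplotlib 3.10.9. On simulated data all 1337 broken domains planted among 2000 were recovered. Named domains were the 10 widest, the 10 with most clone regions, the 5 with the longest gap, the 5 most and 5 least covered of at least 20 kb, the 3 nearest the median width and those at the limit of membership. Members and rules were chosen with earlier results of these data known. No gene was assigned, since the gene table at hand describes another build: 121 population regions on chromosome 7 lay beyond its last gene there.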

Additional observations from a re-analysis of the deposited data

How the results depend on the processing

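Each of 5 results was recomputed under 8 alternatives. Of the 40 values, 18 stayed within the 95% interval (within 1.5 times for the number of domains) and 22 did not. Joining clone regions within 1000 bp left 492 broken domains, with a median covered share of 64.7%, a median gap of 2238 bp, a median inside share of 58.4% and 58.3% of domains with more unmarked inside. Joining within 3000 bp left 187, with 53.0%, 4905 bp, 64.2% and 63.6%; these settings remove short gaps by construction. Joining population regions within 1000 bp gave 76.6%, 501 bp, 46.5% and 47.5%, with 1729 domains, of which 529 were reported domains with unchanged ends; unmarked sequence was then 5.71 Mb inside and 8.50 Mb at edges. Counting a clone region where 50% of its width lay in the domain gave 78.8%, 387.5 bp, 33.0% and 36.8%. With domains of at least 10 kb the values were 78.0%, 434 bp, 35.5% and 38.6%. Leaving out the X chromosome, including chromosomes 11 and 13 (1556 domains), and using clone regions of at least 2000 bp (1023 domains) kept all 5 within their limits. Unknown depth limits every statement on unmarked sequence. No paired analysis was possible because replicate libraries were lacking.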

Other observations

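Broken domains were counted in bins of 1 Mb. Of the bins with any, 443 held 1 broken domain, 187 held 2, 85 held 3 and 73 held more. The bin with most, on chromosome 7 (103000001 to 104000000), held 8 broken domains among 54 population regions, from 3.16 to 38.1 kb wide, met by 25 clone regions that covered 81.0% of their 149.7 kb. On chromosome 4 the bin from 108000001 to 109000000 held 6, covered to 43.9%, with 39.3 kb unmarked inside and 27.0 kb at edges, and the bin from 151000001 to 152000000 held 6, covered to 61.6%, with 3.17 kb inside and 41.4 kb at edges. On chromosome 2 (154000001 to 155000000) 7 broken domains were covered to 90.5%. These places were chosen after their values were seen.

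Where both lists were interrupted, regions linked by overlap formed chains. There were 274 chains with 2 or more regions of both lists. On chromosome 16 (22096429 to 22161913) 3 population regions and 9 clone regions were linked over 65.5 kb, with 64.5 kb marked in the population, 56.5 kb in the clone and 55.5 kb in both. On chromosome 18 (65750999 to 65782926) the clone list was the less divided, with 2 clone regions over 10 population regions in 31.9 kb.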
